A study of Drosophila melanogaster with 6 samples.

Results

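The glutathione S-transferases of Drosophila melanogaster were followed in larvae with excess DHR96. Members were the probe sets whose gene symbol in the platform annotation has the form GstD, GstE, GstO, GstS, GstT or GstZ with a number. There were 36 such probe sets, for 34 genes, of 11983 genes that the annotation names for the array. By class letter they were 11 GstD (delta), 13 GstE (epsilon), 3 GstO (omega), 1 GstS (sigma), 4 GstT (theta) and 2 GstZ (zeta) genes.

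Glutathione S-transferases join the tripeptide glutathione to reactive or foreign compounds, which makes the products easier to export, and several also reduce lipid peroxides. The delta and epsilon classes are expanded in insects and are known for insecticide resistance. The omega enzymes act in thiol transfer, and the zeta class is known for an isomerase step of tyrosine breakdown. DHR96 is a nuclear receptor with roles in the response to foreign compounds and in the handling of dietary lipids.

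RNA of whole young larvae of the third instar, fed on baker's yeast, was measured on oligonucleotide arrays. The 3 gain samples carried a P-element transgene whose heat-shock promoter drives a full-length cDNA of DHR96. The 3 control samples were w1118 larvae, the host strain with no transgene. A 1 h heat treatment at 37.5 °C was given to both groups 3 h after they entered that instar, and larvae were taken for RNA 4 h after it. The heat-shock promoter is not limited to a tissue, no insertion line is named in the labels, and no transgenic larvae without heat were analysed here, so that induced DHR96 and the line's own background cannot be told apart. Whether replicates were grown as separate cultures is not stated in the labels, so the p-values measure the spread between these samples, which may be technical.

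Values are log2 intensities after GCRMA, and differences are gain minus control on that scale. A gene was tested when its brightest probe set reached a floor of 4 on at least 3 arrays. Probe sets with no gene or several genes in the annotation were tested singly by the same floor. This gave 7974 features, 7010 of them genes, and a call was an adjusted p under 0.05 from limma. Hr96, the gene of DHR96, lay at 9.47 to 9.82 in control and at 14.64 to 14.73 in gain, as its group labels state. Across all features tested the median difference was -0.15, and gain 2 lay below both other gain arrays for 79.7% of them. The standard deviation of the difference between control 1 and control 2 was 0.204 over all features, against 0.432 and 0.482 between each of these and control 3. Of tissue markers, 3 of 6 midgut and 4 of 6 Malpighian tubule genes were tested and none was called. Their log2 summed signal was 13.50 to 13.74 in control and 13.13 to 13.38 in gain for midgut, and 11.41 to 11.82 and 10.95 to 11.44 for tubules. The tubule genes did not all differ in 1 direction, with Drip at -0.72, Irk3 at -0.67, ZnT35C at -0.24 and salt at 0.32. No call was made among 3 fat body, 3 muscle and 4 haemocyte genes or for elav, the only one of 4 neuron genes tested. Of 5 male germline genes, ocn and betaTub85D were tested only because their control arrays lay above the floor, at 5.35 to 5.82 and 4.98 to 6.07. All their gain arrays lay below it, at 2.98 to 3.36 and 3.38 to 3.95, and the other 3 genes were not tested. The part of these tissues in the results below was not tested, and in whole larvae fewer cells of a type and less RNA per cell cannot be told apart.

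Of the tested glutathione S-transferases, 1 was called higher in gain larvae and none was called lower. GstD5, a delta class gene (CG12242), rose 1.82-fold, while the other 29 tested members did not pass. Over all features 0.451% were called higher and 3.47% lower, against 1 and 0 of the 30 tested members. The remaining 4 of the 34 genes, GstD11, GstE2, GstE4 and GstE14, lay below the floor on all 6 arrays and were not tested. GstE14, also known as noppera-bo, acts in ecdysteroid synthesis in the prothoracic gland, and its values were 2.46 to 2.61. GstE2 lay at 2.91, 3.12 and 2.86 in control and 2.32, 2.35 and 2.57 in gain, all at background level, and GstD11 and GstE4 stayed between 1.96 and 2.13.

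**Figure D1:**
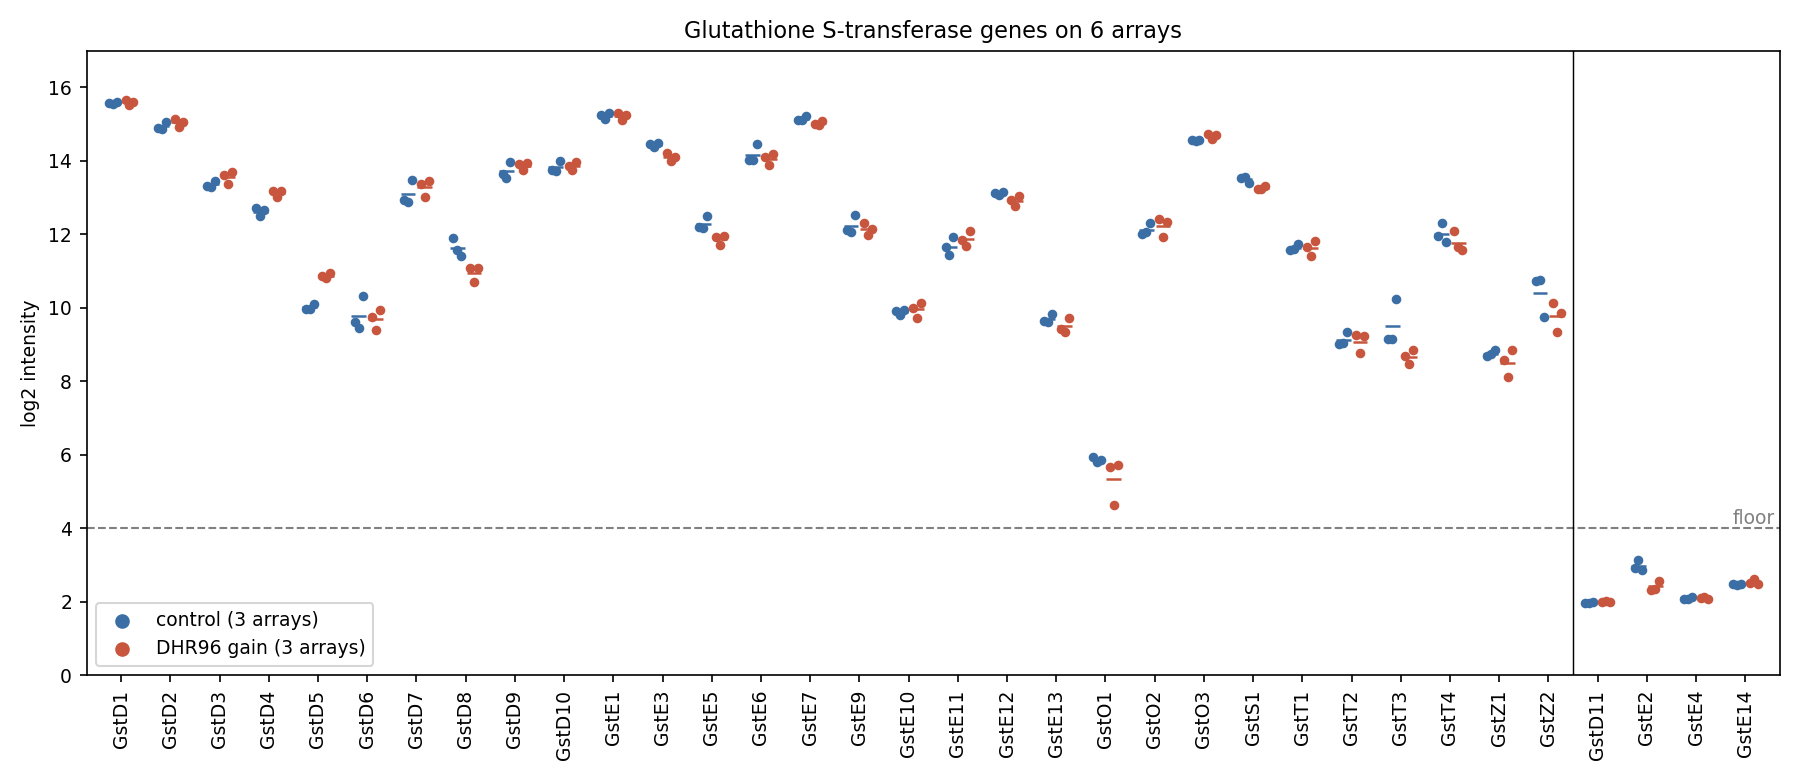
Log2 intensity of the 34 glutathione S-transferase genes on each array (brightest probe set of a gene, points; bars are means of 3 arrays), control in blue and gain in red. The 4 genes right of the vertical line lie below the floor of 4, and GstD5 shows its 3 gain arrays, at 10.82 to 10.94, above its control arrays, at 9.97 to 10.09.

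On the control arrays GstD5 read 9.97, 9.98 and 10.09 (log2), and on the gain arrays 10.87, 10.82 and 10.94. The groups did not overlap, and the gap between them was wider than the range within either. The difference was 0.86 ± 0.10 (SE, n = 3 per group, 95% interval 0.63 to 1.09, limma adjusted p = 0.0096). It lay 1.01 above the median difference of all features. The call was lost without control 1 (adjusted p = 0.0718) and without control 2 (adjusted p = 0.0642), while the difference stayed between 0.83 and 0.90 with any 1 array left out. Those same fits left 39 and 59 calls over all features, against 313 with 6 arrays.

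GstD4, which neighbours GstD5 in the delta cluster, stood next. Its values were 12.72, 12.49 and 12.65 in control and 13.18, 13.01 and 13.19 in gain. Again all gain arrays lay above all control arrays, by a smaller step. The difference was 0.51 ± 0.11 (SE, n = 3 per group, 95% interval 0.23 to 0.78) without passing (adjusted p = 0.0655). GstD4 passed in 5 of 21 other settings. It did so with quantile normalization (0.60, adjusted p = 0.0216), median difference centring (0.65, adjusted p = 0.0156) and an intensity trend (adjusted p = 0.0376). It also passed with median centring over the tested features (0.75, adjusted p = 0.0137), added after the data were seen. The fifth was array weights (adjusted p = 0.00513), whose estimate stopped before convergence. It did not pass with median centring (0.41, adjusted p = 0.249) or with the replicate number as a block (adjusted p = 0.0928). With any 1 array left out the adjusted p ran from 0.0589 to 0.241.

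GstD8 had the largest negative difference of the delta class. It lay at 11.90, 11.57 and 11.40 in control and 11.10, 10.70 and 11.08 in gain. Every gain array lay below every control array, and control 1 stood highest. The difference was -0.67 ± 0.18 (SE, n = 3 per group, adjusted p = 0.101), with a 95% interval from -1.09 to -0.24.

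For the other delta genes the differences were of the size of the spread between arrays. GstD1, an enzyme known for activity on DDT and on a product of lipid peroxidation, lay at 15.58, 15.55 and 15.61 in control and 15.66, 15.52 and 15.61 in gain. Its groups overlapped, with a difference of 0.02 ± 0.09 (adjusted p = 0.926) and a 95% interval from -0.21 to 0.25. This was the narrowest interval of the 30 tested members. Its signal lay near the top of the scale, since the highest log2 value of any probe set was 16.41.

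GstD2 read 14.88, 14.88 and 15.05 on the control arrays and 15.15, 14.92 and 15.07 on the gain arrays, differing by 0.11. GstD3 lay at 13.33, 13.30 and 13.46 in control and 13.61, 13.37 and 13.71 in gain, differing by 0.20 that passed with median centring over the tested features (0.45, adjusted p = 0.0412) and with array weights (0.29, adjusted p = 0.0109). In both genes gain 2 fell within the control range and the other gain arrays lay above it.

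GstD7 lay at 12.93, 12.88 and 13.48 in control and 13.38, 13.02 and 13.45 in gain, differing by 0.19. GstD9 lay at 13.64, 13.53 and 13.97 in control and 13.93, 13.76 and 13.94 in gain, differing by 0.16. In both genes control 3 lay above all gain arrays, and the adjusted p-values of GstD2, GstD3, GstD7 and GstD9 ran from 0.394 to 0.636. In GstD7 control 3 was the highest control array and gain 2 the lowest gain array. Leaving out both, which can only raise the difference, gave 0.51 (adjusted p = 0.0332). The difference was 0.38 without control 3 alone (adjusted p = 0.255) and 0.32 without gain 2 alone (adjusted p = 0.489). GstD6 and GstD10 had differences of -0.10 and 0.04, and GstD6 had the widest interval of the class, with control values of 9.61, 9.45 and 10.32.

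Taken by class, 8 of 10 tested delta genes lay higher in gain, and the median difference was 0.14, against -0.15 for all features. Relative to that median 9 of the 10 lay above it, and 8 of 10 did under quantile normalization. The class median stayed positive under all 4 other scalings, from 0.04 with median centring to 0.38 with median centring over the tested features. Except for quantile normalization these subtract a constant per array, so they cannot move the class relative to all features. It lay 0.28 above their median in each, and 0.18 above under quantile normalization.

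**Figure D2:**
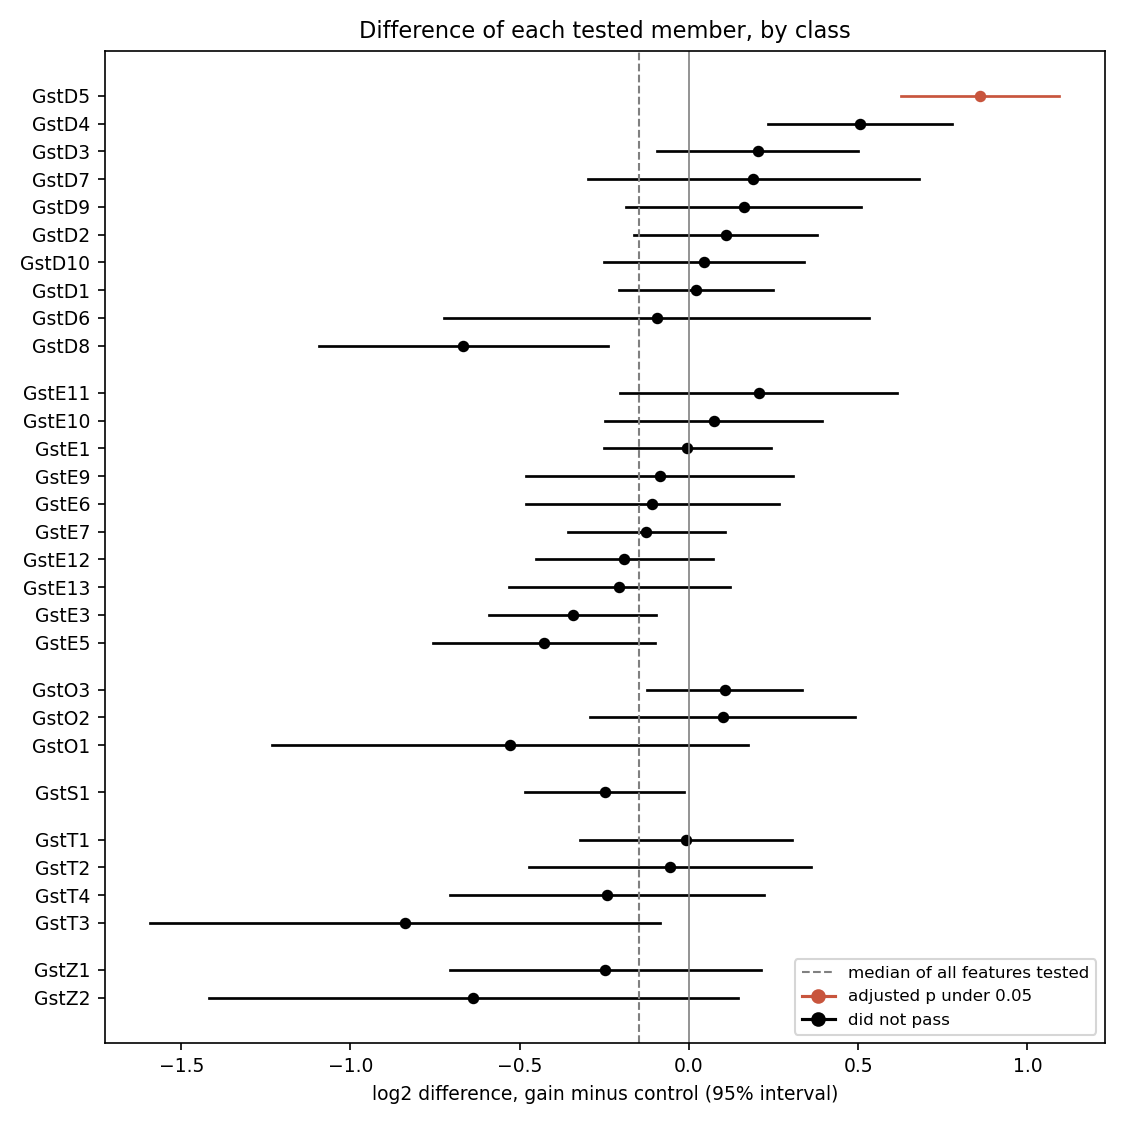
Log2 difference (gain minus control) of the 30 tested members with 95% intervals from limma, grouped by class. The red point, GstD5, passed; the dashed line marks the median of all features tested, -0.15.

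In the epsilon class no gene passed. A negative difference was seen in 8 of 10 tested genes, against 75.0% of all features. The class median was -0.12 and turned to 0.03 with median difference centring and to 0.13 with median centring over the tested features. Relative to all features it lay 0.03 above, or differed by -0.04 under quantile normalization. Of the 10 genes, 6 lay above the median of all features, and 3 did under quantile normalization. Every one of the 10 had a 95% interval that excluded a 2-fold difference.

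GstE5 had the largest negative difference of the class. Its values were 12.21, 12.17 and 12.50 in control and 11.93, 11.70 and 11.97 in gain. The groups did not overlap, and the difference was -0.43 ± 0.14 (SE, n = 3 per group, adjusted p = 0.149).

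GstE3 lay at 14.45, 14.39 and 14.50 in control and 14.21, 14.00 and 14.11 in gain. The 3 control arrays lay close together and above all gain arrays. The difference was -0.34 ± 0.10 (adjusted p = 0.130). It passed with an intensity trend (adjusted p = 0.0459) and with array weights (-0.26, adjusted p = 0.014).

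GstE11 had the largest positive difference of the class, with 11.66, 11.43 and 11.92 in control and 11.85, 11.68 and 12.09 in gain. Its groups overlapped widely, and the difference was 0.21 ± 0.17 (adjusted p = 0.522).

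GstE1 and GstE7 had, with GstD1, the highest signals of the family, which sets no order of their transcripts, since probe sets differ in how they bind. GstE1, which also acts on products of lipid peroxidation, lay at 15.24, 15.14 and 15.29 in control and 15.29, 15.12 and 15.25 in gain. GstE7 lay at 15.12, 15.10 and 15.23 in control and 15.01, 14.98 and 15.09 in gain. The ranges of GstE1 were almost the same in both groups (difference -0.0047 ± 0.10, adjusted p = 0.985), whereas those of GstE7 did not overlap by a small step (difference -0.13 ± 0.10, adjusted p = 0.493). GstE12 was the fourth epsilon gene whose groups did not overlap, at -0.19. GstE6, GstE9, GstE10 and GstE13 had differences of -0.11, -0.09, 0.07 and -0.21, with overlapping groups. The second probe set of GstE9 gave 0.07, against -0.09 for the brighter one, both within the spread of the arrays.

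Most delta and most epsilon genes lie in 1 cluster per class. By the RefSeq table of the Release 6 assembly, GstD10, GstD9, GstD1, GstD2, GstD3, GstD4, GstD5, GstD6, GstD7 and GstD8 follow each other in this order, with 1 long noncoding RNA gene between GstD1 and GstD2 and no other gene between them. GstD4 and GstD5 stand side by side there, with differences of 0.51 and 0.86. The next gene, GstD6, had -0.10, and GstD8, 3 places after GstD5, had -0.67. In the epsilon cluster GstE3 and GstE5 are separated by GstE4, which lay below the floor, and by 2 noncoding RNA genes. Sequences within a cluster are alike, and cross-hybridization between neighbours is possible. No probe sequences were used here, and how far that enters the values was not tested. GstE8, which lies between GstE7 and GstE9, is the one family gene of 35 in that table with no probe set named for it here.

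**Figure D3:**
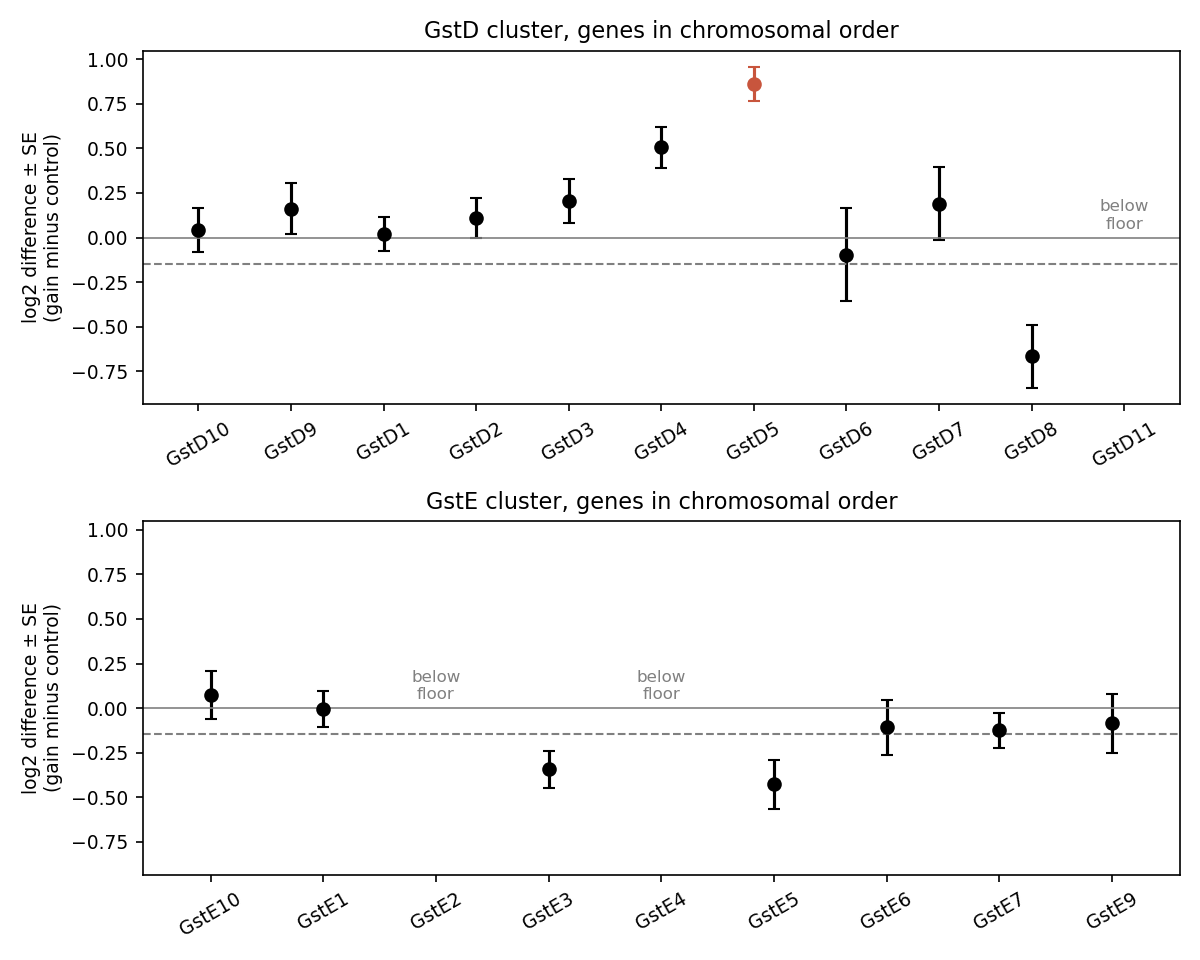
Log2 difference (gain minus control, ± SE, n = 3 per group) of the genes of both clusters in chromosomal order, evenly spaced. GstD5, in red, passed; GstD4 beside it lies at 0.51 and GstD8 at -0.67, and the dashed line is the median of all features, -0.15.

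None of the omega, sigma, theta and zeta genes passed. GstO3 and GstO2 had small positive differences. GstO3 lay at 14.58, 14.54 and 14.58 in control and 14.72, 14.58 and 14.72 in gain, where gain 2 lay barely above the control arrays (difference 0.11 ± 0.10, adjusted p = 0.559). GstO2 lay at 12.02, 12.06 and 12.30 in control and 12.41, 11.93 and 12.34 in gain, with overlapping groups (difference 0.10 ± 0.16, adjusted p = 0.762). Its second probe set gave -0.21, so the direction of GstO2 was not the same in both probe sets.

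GstO1 was the member closest to the floor, at 5.94, 5.81 and 5.86 in control and 5.68, 4.63 and 5.71 in gain. Its difference of -0.53 ± 0.29 (adjusted p = 0.355) rested on gain 2, and without that array it was -0.17. By the same table GstO3, sepia, GstO2 and GstO1 follow each other, and sepia, an omega class gene of eye pigment synthesis, lay below the floor.

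GstS1, a sigma class enzyme known for its abundance in insect flight muscle, lay at 13.54, 13.56 and 13.41 in control and 13.24, 13.23 and 13.31 in gain. The groups did not overlap, and the difference was -0.25 ± 0.10 (SE, n = 3 per group, adjusted p = 0.215). The name of its probe set marks it, in this array's naming, as one that may read more than 1 transcript. Relative to the median of all features the difference was -0.10.

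GstT3 had the largest negative difference of all members. It lay at 9.15, 9.14 and 10.24 in control and 8.70, 8.46 and 8.85 in gain. All gain arrays lay below all control arrays, but control 3 stood more than 1 unit above the others. The difference was -0.84 ± 0.31 (adjusted p = 0.197), and without control 3 it was -0.47. GstT4 had -0.24, and GstT1 and GstT2, which lie side by side, had -0.0073 and -0.06. The difference was negative for all 4 theta genes and for 75.0% of all features. The theta median of -0.15 was equal to that of all features to this precision.

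GstZ2 lay at 10.72, 10.77 and 9.76 in control and 10.13, 9.35 and 9.85 in gain. Control 3 fell within the gain range, far below the other controls. The difference was -0.64 ± 0.33 (adjusted p = 0.321), and without control 3 it was -0.96 (adjusted p = 0.0873). GstZ1, its neighbour, had -0.25 ± 0.19 (adjusted p = 0.496), reading 8.69, 8.73 and 8.84 on the control arrays and 8.57, 8.11 and 8.84 on the gain arrays.

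Over the family, the median difference of the 30 tested members was -0.07, with 12 positive and 18 negative. The negative share was 60.0%, against 75.0% of all features. Relative to the median of all features, -0.15, 19 of 30 lay above. The sign of the family median depended on the arrays and the scaling: it was 0.04 without control 3, 0.05 without gain 2, 0.04 with quantile normalization and 0.18 with median centring over the tested features. Before adjustment 7 members had a p under 0.05, 2 higher and 5 lower. Of all 7974 features 21.1% did, 209 higher and 1472 lower. In 3 members the gain arrays lay wholly above the control arrays (GstD4, GstD5 and GstO3), where 5.49% of all features did so, and in 8 they lay wholly below, where 25.2% did. The 95% interval excluded a 2-fold difference in 25 of the 30 members, a share of 83.3%, against 80.7% of all features. The exceptions were GstD5, GstD8, GstO1, GstT3 and GstZ2.

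Differences between replicates of a group were of the same order as most of these differences. The median residual standard deviation of the members was 0.16, against 0.20 for all features. Control 3 was the highest control array in 24 of 30 members, a share of 80.0%, against 46.4% of all features, and lay 0.14 above the other controls in the median member. Gain 2 was the lowest gain array in 29 of 30 members, the exception being GstT4, and lay 0.24 below the other gain arrays in the median member. For gain 2 the median over all features was -0.29, whereas for control 3 it was 0.02. The high values of the members on control 3 thus had no counterpart in the median of all features. GstD5 varied less, with standard deviations of 0.07 in control and 0.06 in gain.

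**Figure D4:**
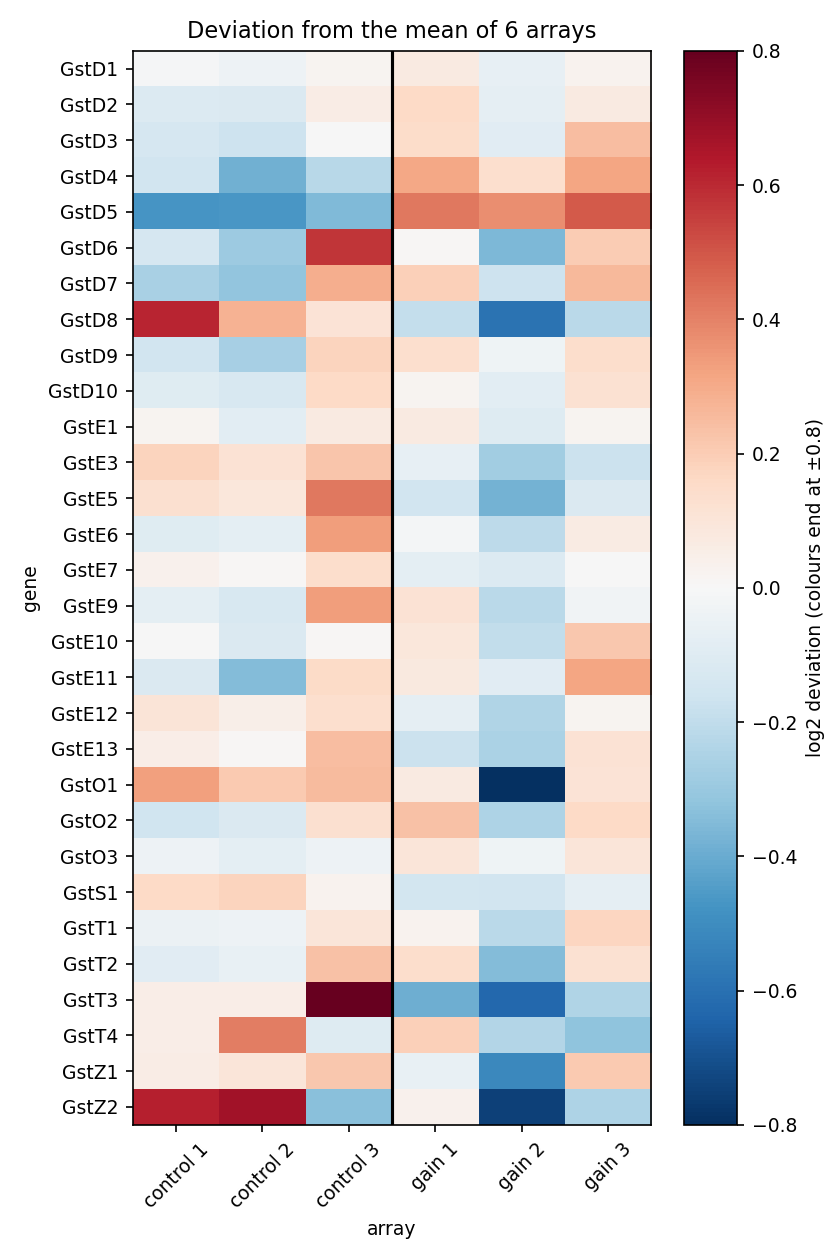
Deviation of each tested member on each array from its mean over the 6 arrays, in log2 units (red higher, blue lower). The groups do not overlap in 3 members higher in gain, GstD5 and GstD4 among them, and in 8 lower in gain. Control 3 is red for most members, and gain 2 is blue for most.

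Genes that make, recycle or export glutathione were read from the same fit. Of 19 genes listed, 17 had a probe set named for them and 14 were tested. None was called higher and 1 was called lower, where 0.451% and 3.47% of all features were. Their median difference was -0.08, against -0.15 for all features. The gene called lower was gfzf, which encodes a zinc finger protein with a glutathione S-transferase domain. It lay at 10.85, 10.71 and 10.87 in control and 9.89, 9.94 and 10.20 in gain. The groups were separated by more than their ranges, and differed by -0.80 ± 0.12 (SE, 3 arrays per group, adjusted p = 0.0223). The second probe set of gfzf gave -0.10. It lay much nearer the floor of 4, at 5.16 to 5.27 in control and 5.06 to 5.22 in gain. The call was lost with the mean of both probe sets (-0.45, adjusted p = 0.0576). It was also lost with median centring over the tested features (-0.55, adjusted p = 0.054) and without control 1 (adjusted p = 0.133), control 2 (0.0819), gain 1 (0.0843) or gain 2 (0.0525).

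Gclc, the catalytic subunit of the enzyme that limits glutathione synthesis, lay at 12.82, 12.53 and 12.54 in control and 13.08, 13.04 and 13.40 in gain. Its groups did not overlap, and the difference of 0.54 ± 0.15 did not pass (adjusted p = 0.102). Gclc passed only with quantile normalization, with median difference centring, with median centring over the tested features and with array weights. It did not pass with median centring, with the replicate number as a block or with any 1 array left out. The settings for these genes were added after the data were seen, and the estimate of array weights stopped before convergence. Gclm, the modifier subunit, had -0.08. Among thiol reductases and peroxidases TrxT, a thioredoxin of the male germline, had the largest difference, with 8.13, 8.30 and 8.15 in control and 7.62, 6.36 and 5.73 in gain (-1.63 ± 0.45, adjusted p = 0.109). It passed only with median centring and without gain 1. The male germline markers ocn and betaTub85D, above the floor in control, lay below it in gain, and their part in this difference was not tested. Trxr1, the thioredoxin reductase that stands in for glutathione reductase in flies, had -0.23, and MRP, an exporter of glutathione conjugates, and Ggt-1, which breaks down glutathione, had 0.14 and -0.16.

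The regulators of the antioxidant response, through which several glutathione S-transferases are induced in flies, did not pass. The activator gene cnc lay at 12.11, 12.07 and 12.05 in control and 12.14, 12.12 and 12.09 in gain, differing by 0.04 ± 0.09 (adjusted p = 0.827). Keap1, its inhibitor, had -0.51 ± 0.33 (adjusted p = 0.416), with gain 2 at 5.64 and the other arrays between 6.72 and 7.07. Its partner maf-S had 0.03. In cnc the groups overlapped, and in Keap1 1 gain array stood far below the rest. These values are of RNA, and the activity of the regulator proteins was not measured.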

How the data were processed

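The authors deposited 1 intensity per probe set and array on a linear scale, and the submitters' processing notes name GCRMA without a version. Neither the scanner settings nor a build is given in the sources used here. Of 18952 probe sets 13647 had 1 gene in the platform annotation, and all 34 family genes matched by gene ID a RefSeq gene table (assembly Release 6 plus ISO1 MT) that gave symbols and gene order.

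Log2 values were taken with no pseudocount. The 183 control probe sets were left out, the floor of 4 on 3 of 6 arrays was applied, and each gene was read by its brightest probe set. The group comparison used lmFit and eBayes of limma 3.58.1 (R 4.3.3) without covariates, with Benjamini-Hochberg adjustment over 7974 tests. In simulated data with independent noise, 7 of 50 log2 changes of 0.5 were called, 28 of 50 of 1 and 48 of 50 of 2. No shift common to an array was simulated. Python 3.11.15 (NumPy 2.4.6, pandas 2.3.3, Matplotlib 3.10.9) made the tables and figures. The number of arrays limits the precision.

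Members and gene lists were chosen with earlier results of these data known. All members are named, and per-array values are given for members that passed here or under a planned setting, for the largest differences of each class and for the 3 highest signals. Other settings chosen at the outset were a floor of 6, no filter, quantile normalization, 2 centrings, an intensity trend, robust hyperparameters, array weights, other uses of a gene's probe sets, a pseudocount of 16, a block on the replicate number, and arrays left out or averaged. Median centring over the tested features, and all settings for the glutathione pathway genes, were added after the data were seen. Sequences of promoters and proteins were not used here.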

Additional observations from a re-analysis of the deposited data

How the results depend on the processing

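Over 21 other settings GstD5 kept a positive difference, from 0.77 to 1.11, and passed in 18, with adjusted p-values from 0.000168 to 0.0718. It did not pass without control 1, without control 2 or with controls 1 and 2 averaged (adjusted p = 0.0646). Calls among the family numbered 2 with quantile normalization and with median difference centring (GstD4 and GstD5), 3 with an intensity trend (GstE3 besides), with median centring over the tested features (GstD3, GstD4 and GstD5) and without control 3 and gain 2 (GstD5, GstD7 and GstZ2), 0 with controls 1 and 2 averaged, and 0 to 1 with 1 array left out (0 without control 1 and without control 2). Array weights, whose estimate stopped before convergence, gave 12, of which 7 were higher and 5 lower (GstD8, GstE3, GstE5, GstS1 and GstZ2). The family median, -0.07 as reported and -0.13 to 0.05 with 1 array left out, moved to 0.13 without control 3 and gain 2 and to 0.18 with median centring over the tested features, where that of all features was 0.10. Calls over all features, 313 as reported, numbered 102 with no filter, where 17105 features share the adjustment, 477 (128 higher, 349 lower) with median difference centring, 2566 with array weights, 760 without control 3 and gain 2, 53 with controls 1 and 2 averaged and 39 to 425 with 1 array left out (39 without control 1, 59 without control 2, 135 without gain 1). Quantile normalization gave 171 higher and 282 lower, and median centring over the tested features 201 and 252. The glutathione pathway genes had 2 calls with quantile normalization, median centring or median difference centring, 5 with array weights, 0 with no filter, the mean of probe sets, controls 1 and 2 averaged or without control 3 and gain 2, and 0 to 1 with 1 array left out. The causes were not tested.

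Of the 30 tested members 15 kept their sign in every setting, GstD5, GstD4, GstD8, GstE3, GstE5, GstT3 and GstZ2 among them. The other 15 changed sign in at least 1, without passing there. Under quantile normalization GstE1, GstE9, GstE13, GstZ1, GstD6, GstT1 and GstT2 lay at 0.0071, 0.047, 0.0089, 0.013, 0.11, 0.17 and 0.19. Under median difference centring GstE1, GstE6, GstE7, GstE9, GstD6, GstT1 and GstT2 lay at 0.14, 0.039, 0.022, 0.061, 0.052, 0.14 and 0.092. Median centring over the tested features put GstE1, GstE6, GstE7, GstE9, GstE12, GstE13, GstD6, GstT1, GstT2, GstT4 and GstZ1 at 0.24, 0.14, 0.12, 0.16, 0.057, 0.043, 0.15, 0.24, 0.19, 0.0059 and 0.00089. Array weights put GstE1, GstE6, GstE9, GstD6, GstT1 and GstT2 at 0.052, 0.072, 0.16, 0.17, 0.085 and 0.20, and leaving out control 3 and gain 2 put them at 0.078, 0.11, 0.15, 0.32, 0.14 and 0.21. Median centring over all probe sets put GstD1, GstD10 and GstE10 at -0.072, -0.049 and -0.020. GstO2 lay at -0.054 with the mean of its probe sets, and GstD10 at -0.0025 with controls 1 and 2 averaged. With 1 array left out GstE1 ran from -0.047 to 0.044, GstE6 from -0.18 to 0.03, GstE9 from -0.17 to 0.06, GstE10 from -0.017 to 0.19, GstD1 from -0.0090 to 0.059 (0.075 without control 3 and gain 2), GstD6 from -0.27 to 0.17, GstD10 from -0.011 to 0.14, GstT1 from -0.10 to 0.10 and GstT2 from -0.14 to 0.10.

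With the replicate number as a block the family had 1 call, GstD5 (adjusted p = 0.0345), all features 258 and the pathway genes 1. The numbers were not taken as pairs, since deviations of same-numbered arrays correlated at 0.21, 0.03 and 0.37 over 7974 features, and control 2, gain 1 and gain 2 each correlated best with an array of another number. Precision is limited by 3 arrays per group, and the standard errors of the members ran from 0.095 for GstD1 to 0.33 for GstZ2.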
